A study of Mus musculus with 5 samples.

Results

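Among sorted CD4 T cells labelled as SMARTA, a line with a transgenic T cell receptor, and taken from tumour-bearing mice given both diphtheria toxin and an antibody against CTLA4, 1008 of 4343 cells held at least 1 unique molecular identifier (UMI, a counted RNA molecule) of Eomes, Gzmk or Cldn10 and no UMI of Foxp3 and Il2ra. They are called Eomes/Gzmk/Cldn10 cells here. They are described beside 1362 cells of the same library with no UMI of any of the 5 genes, and beside 114 cells that met the same rule in the library from mice given the toxin alone, where 660 cells had none of the 5 genes. The whole series held 20149 cells. The cells were chosen by their own UMIs of these 5 genes, so the levels of the 5 genes are given as a description only.

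The series held 5 single-cell libraries from C57BL/6 mice, 1 library for each group, made with a droplet method that reads the 3′ end of each RNA. The groups were naive SMARTA cells from the spleen, and SMARTA cells from the tumour-draining inguinal lymph node of mice that were untreated, given the CTLA4 antibody, labelled as depleted of regulatory T (Treg) cells by diphtheria toxin, or given toxin and antibody together. Toxin was given on days 0 and 2 and the antibody on days 0, 2 and 5, and tissue was taken on day 8. The cells were sorted as CD4+ CD45.1+, a surface mark that tells donor cells from host cells. The labels name the tumour as MC38 in 1 place and as PyMG in another, they do not name the allele through which the toxin acts, and they state no isotype antibody for any library. Of the cells themselves, 1412 of 2186 in the toxin-only library and 1973 of 4343 in the toxin-plus-antibody library held a UMI of Foxp3 or Il2ra, against 171 of 7955, 45 of 1099 and 122 of 4566 in the naive, untreated and antibody-only libraries. Library totals ran from 3825958 to 27967273 UMIs over 11924 listed genes. Each group is 1 library, so no test between groups was possible, and every interval below is a 95% interval that covers counting error only.

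Eomes is a T-box transcription factor best known from cytotoxic CD8 T cells and natural killer (NK) cells, and in CD4 T cells it is found in cytotoxic cells and in type 1 regulatory (Tr1) cells that lack Foxp3. Gzmk encodes granzyme K, a serine protease of cytotoxic granules that is often made together with Eomes. Cldn10 encodes a claudin, a protein of tight junctions. CTLA4 is an inhibitory receptor that competes for the ligands of CD28, and Treg cells carry it at a high level.

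The 3 genes were chosen with earlier results of these data known, so the order of libraries by them is a description only. The share of cells with at least 1 of the 3 genes, among cells without Foxp3 and Il2ra, was highest under toxin plus antibody, at 42.5% (95% exact binomial interval 40.5 to 44.6). It was 14.7% (12.3 to 17.4) under toxin alone, 4.65% in the untreated library, 3.20% under antibody alone and 1.39% in naive cells. After each cell was thinned to 1000 UMIs, which left out 302 shallower cells of 2370 under toxin plus antibody and 20 of 774 under toxin alone, the shares were 32.8% (30.8 to 34.9) and 5.31% (3.82 to 7.15). The thinned shares of the other libraries were 2.13% untreated, 0.945% under antibody alone and 0.823% naive, and their intervals lay below that of the toxin-only library. Cells with Foxp3 or Il2ra in the toxin-plus-antibody library held a UMI of the 3 genes in 10.2% of cells at a median of 4054 UMIs per cell (4.23% thinned), although the Eomes/Gzmk/Cldn10 cells had a median of only 2196 UMIs. Of 19 cells with at least 2 B cell or myeloid markers, a class that should lack these genes, 4 held one of them (21.1%, 6.05 to 45.6, median 4224 UMIs), an interval that ends above the share in cells with neither Foxp3 nor Il2ra.

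**Figure D1:**
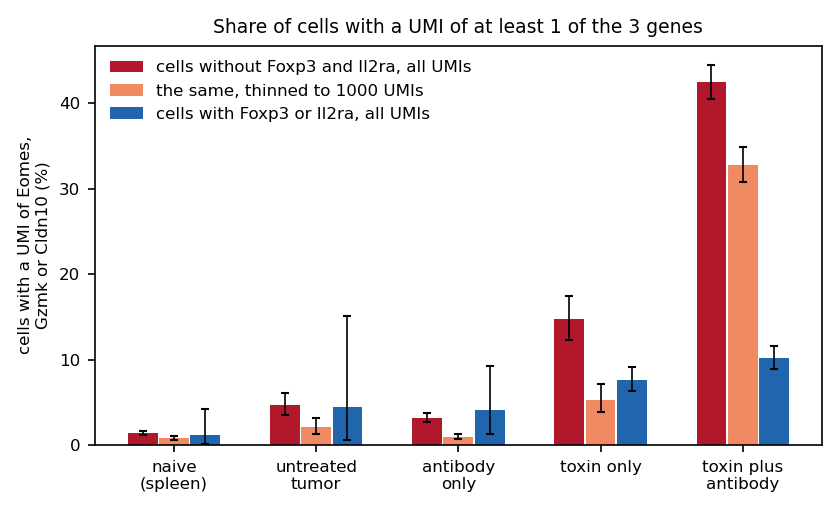
Percent of cells with a UMI of Eomes, Gzmk or Cldn10 (y axis) in each of the 5 libraries, as bars from 0 with exact binomial 95% intervals, for cells without Foxp3 and Il2ra with all UMIs and thinned to 1000 UMIs, and for cells with Foxp3 or Il2ra. The toxin-plus-antibody library stands at 42.5% with all UMIs and 32.8% thinned, and the toxin-only library at 14.7% and 5.31%. The cells were chosen by these genes, so the shares are a description only.

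Within the 1008 cells, 647 held Eomes, 356 held Gzmk and 471 held Cldn10. Eomes alone was found in 299 cells (29.7%), Cldn10 alone in 185 (18.4%) and Gzmk alone in 132 (13.1%), while 392 cells (38.9%) held at least 2 of the genes and 74 (7.34%) all 3. The genes met in the same cell more often than their separate shares within 5 bins of depth would give over all cells without Foxp3 and Il2ra. Eomes and Gzmk met in 180 cells against 106.5 from the separate shares, Eomes and Cldn10 in 242 against 147.1, and Gzmk and Cldn10 in 118 against 77.6. These are 1.69, 1.65 and 1.52 times the expected counts. Under toxin alone the same ratios were larger, on few cells. They were 4.92 (8 cells), 2.30 (11 cells) and 4.41 (6 cells) in the same order. In the toxin-only library 46 of the 114 cells held Eomes alone, 44 Cldn10 alone and 5 Gzmk alone, and 19 held at least 2 of the genes. A total of 76 of the 108 cells chosen in the naive library held Cldn10 alone. The label of the cells by Eomes and Gzmk together therefore covers 180 of the 1008.

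The rule counts a cell from its first UMI. In the toxin-plus-antibody library 372 of the chosen cells had 1 UMI of the 3 genes, 218 had 2 and 418 had 3 or more. From cells with 0 through 1, 2 and 3 or more UMIs, Kcnc1 stood at 31.8, 146, 212 and 219 CPM (UMIs of a gene per 1000000 UMIs summed over the set), and Slamf7 at 53.5, 192, 375 and 564. Nkg7 went from 474 to 1332, 1526 and 1670, and Ifngas1 from 20.97 to 86.5, 104 and 94.1. Cells just inside the rule thus stood above those just outside it for all 4 genes in this library. Under toxin alone, the 51 cells with 1 UMI had 0 UMIs of Kcnc1. Slamf7 stood there at 62.9 CPM (35.2 to 104) against 43.5 in cells with 0 UMIs, and Ifngas1 at 12.6 (2.60 to 36.8) against 4.07. Nkg7 stood at 252 (192 to 324) against 165.

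The cells carried CD4 T cell RNA. A UMI of Cd4 was found in 45.8% of them and in 53.7% of cells without the 3 genes. For Cd5 these shares were 56.9% and 58.4%, and for Cd6 49.2% and 46.2%. By level, Cd4 had 308 (286 to 331) against 447 (423 to 472) CPM. Cd8a was found as 2 UMIs in 1008 cells and as 1 UMI in the 1362 cells without the 3 genes. Cd8b1 had UMIs in 12.1% of the cells and in 11.2% of those without the 3 genes. Markers of NK and innate lymphoid cells summed to 20.96 CPM against 79.7, and Ncr1, Klra8, Klra4, Klri2 and Gata2 were at 0 in both sets. B cell and plasma cell markers had UMIs for 10 of 14 genes, summing to 2636 CPM against 6773 in cells without the 3 genes, and Ebf1, Pax5 and Fcmr were at 0 in the Eomes/Gzmk/Cldn10 cells. Myeloid and dendritic cell markers, 13 of 13 listed genes, summed to 691 against 1985. Leaving out the 4 Eomes/Gzmk/Cldn10 cells and 15 cells without the 3 genes that held at least 2 of 12 B cell or myeloid markers gives the values quoted below as those without such cells, a check added after the data were seen. The barcodes of 10 Eomes/Gzmk/Cldn10 cells also occurred in another library.

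Compared with cells of the same library that lacked the 3 genes, the Eomes/Gzmk/Cldn10 cells had more RNA of the surface receptor Slamf7, the potassium channel Kcnc1, the noncoding RNA Ifngas1, the granule protein Nkg7 and the cytotoxic genes Crtam, Gzma and Prf1. They had less RNA of another cytotoxic gene, Gzmb, of the cell cycle and of Treg-associated genes. Also lower were CD40 ligand and OX40 (Cd40lg, Tnfrsf4), Ccr7 and Il7r, and the calcium-binding genes S100a4 and S100a6. Of 9083 genes with at least 20 UMIs expected in the smaller set, 210 reached a 2-fold difference upward (2.31%) and 300 downward (3.30%). Ratios are of CPM over all cells of a set.

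Slamf7, a receptor of the SLAM family on NK cells and activated lymphocytes, had 408 CPM in the Eomes/Gzmk/Cldn10 cells and 53.5 in cells without the 3 genes, a 7.63-fold difference (6.43 to 9.10). It was found in 421 of 1008 cells against 104 of 1362. Kcnc1, which encodes a voltage-gated potassium channel subunit best known from fast-spiking neurons, had 194 against 31.8 CPM, 6.11-fold higher (4.88 to 7.74), in 304 cells (30.2%) against 68 (4.99%). Cells with Foxp3 or Il2ra stood at 5.27 for Kcnc1 and 19.3 for Slamf7, under both other sets. Ifngas1, a long noncoding RNA encoded near Ifng, had 93.7 against 20.97 CPM, 4.47-fold higher (3.35 to 6.04). Its exons, on the minus strand of chr10:118502035-118556525 in mm10, overlap no exon of Ifng at chr10:118441046-118445892. Ifng itself, the cytokine gene, was at 19.7 against 22.7, 1.15-fold lower with an interval from 0.781 to 1.71. Nkg7, a membrane protein of cytotoxic granules, had the highest level of this group, 1534 against 474 CPM, 3.24-fold higher (3.04 to 3.45).

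Kcnc1 lies on the plus strand at chr7:46396497-46438704, Nkg7 on the plus strand at chr7:43437073-43438249 and Slamf7 on the minus strand at chr1:171632403-171653035. The promoters of these 3 genes are printed because they stood high together in cells chosen partly for a T-box factor. Each is the sequence of the 250 bases before the start site that RefSeq gives on GRCm38.p6, at chr7:46396218-46396467 (plus), chr7:43436888-43437137 (plus) and chr1:171649000-171649249 (minus), read along the gene's strand. RefSeq's start sites differ from the ends of the gene spans above, which come from another annotation. The Slamf7 window lies wholly inside its span, the Nkg7 window overlaps the start of its span, and the Kcnc1 window lies before its span. Capitals mark the T-box letters GGTGTGA, which were searched on both strands.
Kcnc1: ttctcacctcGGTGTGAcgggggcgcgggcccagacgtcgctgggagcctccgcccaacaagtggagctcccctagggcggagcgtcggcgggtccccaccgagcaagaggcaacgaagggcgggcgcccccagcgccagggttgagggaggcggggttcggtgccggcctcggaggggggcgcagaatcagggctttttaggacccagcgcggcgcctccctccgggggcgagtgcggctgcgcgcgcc
Nkg7: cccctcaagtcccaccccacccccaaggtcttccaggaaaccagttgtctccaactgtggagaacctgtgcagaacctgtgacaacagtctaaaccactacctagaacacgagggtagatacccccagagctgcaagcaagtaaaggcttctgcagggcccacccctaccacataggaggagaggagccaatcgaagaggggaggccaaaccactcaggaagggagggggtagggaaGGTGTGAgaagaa
Slamf7: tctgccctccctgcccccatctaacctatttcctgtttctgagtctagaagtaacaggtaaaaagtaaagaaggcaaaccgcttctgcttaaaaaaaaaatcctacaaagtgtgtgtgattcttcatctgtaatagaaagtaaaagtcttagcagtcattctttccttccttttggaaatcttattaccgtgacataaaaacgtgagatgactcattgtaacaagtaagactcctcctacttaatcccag
Kcnc1 held the letters once, 240 to 234 bases before its RefSeq start site, and Nkg7 once, 13 to 7 bases before its RefSeq start site, which is inside the gene span above. Both were on the gene's own strand, and the Slamf7 window held none. The letters were present before 1095 of all 32851 start sites (3.33%), in 235 of 7220 tested genes with a promoter sequence (3.25%), in 11 of 164 genes at least 2-fold higher (6.71%) and in 5 of 233 at least 2-fold lower (2.15%). Among the 174 genes named by the rule, 140 had a promoter sequence, and Bcl2l1, Cd160, Isg15, Itga4 and Ly6c1 held the letters besides Kcnc1 and Nkg7. These matches are a description of letters.

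The other genes with the largest differences in this direction had varied known roles. Nr4a2, an orphan nuclear receptor induced by T cell receptor signals, had 155 against 20.97 CPM, 7.41-fold higher (5.63 to 9.90). Plek, a protein kinase C substrate of blood cells, had 199 against 31.1, and Cd24a, a glycosyl-anchored surface protein, 245 against 43.7. Dbn1, an actin-binding protein, had 55 UMIs against 5. Syt6, a synaptotagmin, had 45 against 4, Ociad2 50 against 5, Nedd4, a ubiquitin ligase, 58 against 8, and the scaffold gene Cnksr3 107 against 20. These low counts give wide intervals, 5.22 to 41.4 for the 12.9-fold difference of Dbn1. An exon of Plek overlaps one of Cnrip1 and an exon of Slamf7 one of Gm37787, each on the other strand.

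**Figure D2:**
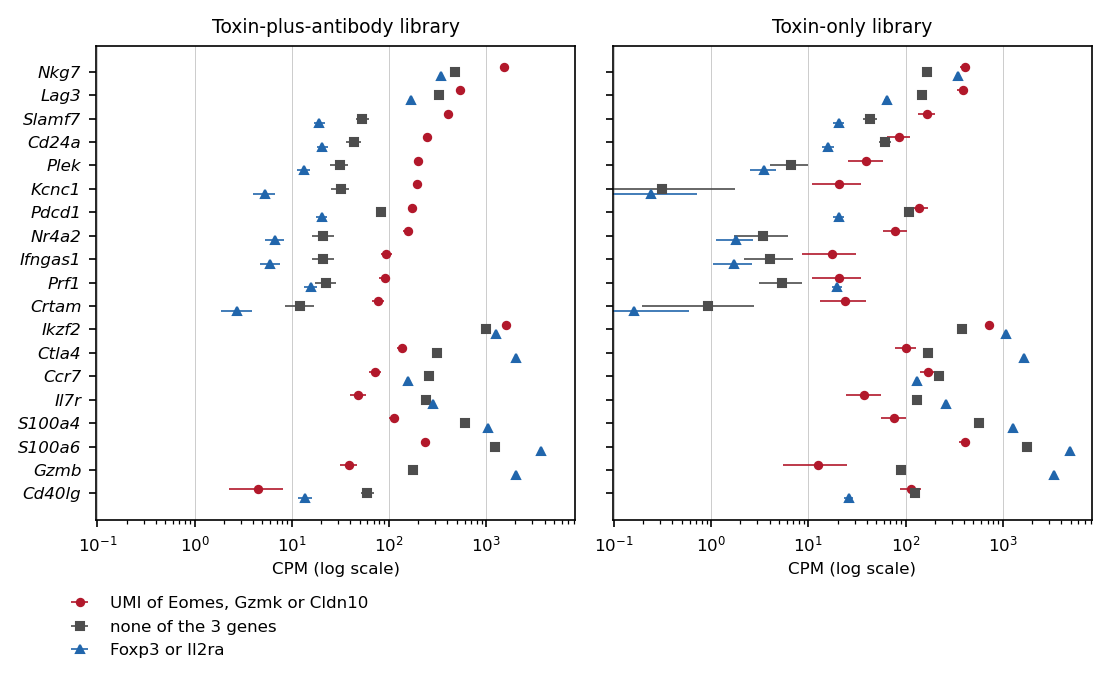
CPM on a log x axis for 19 genes in the toxin-plus-antibody and the toxin-only library. Points are Eomes/Gzmk/Cldn10 cells, cells without the 3 genes and cells with Foxp3 or Il2ra, with exact Poisson 95% intervals for counting error. Slamf7 and Nkg7 stand higher and S100a4 and Gzmb lower in the Eomes/Gzmk/Cldn10 cells than in cells without the 3 genes in both libraries.

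Genes of cytotoxic granules and target killing were partly higher. Among the 12 genes of this list that passed the minimum, 5 had a ratio of at least 1.5 upward and 1 downward. The median log2 ratio was 0.42, beside 0.01 over all 9083 genes, of which 7.43% were at least 1.5-fold higher and 8.08% lower. Crtam, an adhesion receptor of cytotoxic lymphocytes, had 77.7 against 12.2 CPM (6.35-fold higher, 4.41 to 9.39). Gzma, granzyme A, had 269 against 52.8 (5.09-fold, 4.26 to 6.12), and Prf1, perforin, 90.8 against 22.4 (4.06-fold, 3.06 to 5.45). Fasl, a death ligand, was 2.01-fold higher (1.48 to 2.75). Gzmb, granzyme B, went the other way, with 38.6 against 178 CPM (4.61-fold lower, 3.70 to 5.81). The chemokine Ccl5 had 454 against 175 CPM, 2.60-fold higher. A single cell gave 53.0% of its UMIs in the cells without the 3 genes, and without the cells holding B cell or myeloid markers its log2 ratio was 2.66 instead of 1.38.

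Inhibitory receptors split. Pdcd1, which encodes PD-1, had 171 against 83.2 CPM (2.06-fold higher, 1.75 to 2.43), and Lag3 545 against 327 (1.67-fold higher, 1.53 to 1.82). Ctla4, the target of the antibody, had 135 against 310 (2.29-fold lower, 2.02 to 2.61). Over the list 2 of 10 measured genes were at least 1.5-fold higher and 1 lower. The list of exhaustion and memory factors had 4 of 16 higher and 7 lower. Its member Tox, a nuclear factor of chronically stimulated T cells, stood at 598 against 299. Of 11 measured anergy genes, 3 were higher and 1 lower. The ubiquitin ligase Cblb was 1.76-fold higher and the transcription factor Egr2 1.77-fold higher. Of 16 measured follicular helper genes, 6 were higher and 3 lower, with Pou2af1, a co-activator of octamer factors, 2.61-fold higher, Il6ra 3.79-fold lower and the co-stimulatory receptor Icos 2.15-fold lower. Cxcr5, the homing receptor of follicular helper cells, was at 72.8 against 59.8 CPM, with an interval from 0.981 to 1.51 for its ratio.

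Genes linked to Tr1 cells did not move as a group, with 2 of 9 measured at least 1.5-fold higher and 4 lower and a median log2 ratio of -0.47. Il10, the signature cytokine of those cells, had 21 UMIs in 10 Eomes/Gzmk/Cldn10 cells and 15 in 9 cells without the 3 genes, too few to compare. Il21 had 1 UMI against 14. Il10ra, a chain of the receptor for interleukin 10, was 3.01-fold higher (2.50 to 3.65) at 165 against 54.9 CPM, the 1 gene of 21 measured cytokine receptors that was higher, while 7 were lower. Maf, a transcription factor of cells that make interleukin 10, was 1.38-fold higher (1.277 to 1.496).

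Of 12 measured Treg-associated genes, 9 were at least 1.5-fold lower and 1 was higher (median log2 ratio -1.70). Nrp1, the semaphorin receptor neuropilin 1, had 20 UMIs in 13 cells against 235 in 168 cells (9.99-fold lower, 6.32 to 16.7). Ebi3, a subunit of interleukin 35, was 9.85-fold lower, and Itgae, the integrin chain CD103, 9.01-fold lower with 5 UMIs against 53. Ikzf2, the Treg-linked factor Helios, was the gene that stood higher, with 1596 against 989 CPM (1.61-fold, 1.54 to 1.69). The rule removed cells with Foxp3 and Il2ra from both sets, yet RNA of 8 other Treg markers remained. It summed to 1895 CPM in the Eomes/Gzmk/Cldn10 cells and 1567 in cells without the 3 genes. Ikzf2 is 1 of these 8 markers and alone gave 1596 and 989 of those sums. With cells holding at least 2 such markers left out on both sides the list's median was -1.55.

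Cd40lg, which encodes the ligand that T helper cells show to B cells, had 11 UMIs in 11 cells against 172 in 108 cells, 4.52 against 60.1 CPM (13.3-fold lower, 7.25 to 27.1). Tnfrsf4, which encodes OX40, had 95.8 against 459 (4.79-fold lower, 4.16 to 5.53). Over co-stimulatory genes, 7 of 13 were at least 1.5-fold lower and 0 were higher. Of 9 measured cytokine genes, 6 were lower and 1 was higher (median log2 ratio -1.24), and the median was 0.19 when cells holding at least 2 markers of any other type were left out, which leaves 332 and 452 cells. Among them Csf1 was 8.67-fold lower with 5 UMIs against 51, Tnfsf11, which encodes RANKL, 7.34-fold lower, and Lta, lymphotoxin alpha, 3.96-fold lower. Of 13 measured T helper 1 genes, 7 were lower and 2 higher, with the interleukin 18 receptor gene Il18r1 7.12-fold lower, the chemokine receptor genes Cxcr6 and Cxcr3 6.98-fold and 2.31-fold lower, and the kinase gene Txk 2.13-fold higher. Tbx21, which encodes T-bet, the T-box factor that is closest to Eomes in T cells, had only 15 UMIs against 29 (1.64-fold lower, with an interval from 0.853 to 3.30).

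Genes of migration were mostly lower where they differed. Of 18 measured genes for migration and adhesion, 10 were at least 1.5-fold lower and 2 higher (median log2 ratio -0.78). S100a4 had 112 against 612 CPM (5.46-fold lower), in 52 cells against 181, and S100a6 233 against 1222 (5.24-fold lower, 4.797 to 5.740). Reads of S100a4 may be shared with Gm42674, since 56.0% of the 31-base words of its last 300 bases also occur there. Lgals3, galectin 3, was 5.57-fold lower, and Itga4, the integrin chain of VLA-4, was 2.24-fold higher at 792 against 353. Among genes of naive and memory T cells, 7 of 18 were lower and 1 higher. Ccr7, the receptor that guides T cells into lymph nodes, had 72.3 against 256 CPM (3.54-fold lower, 2.996 to 4.193), and Il7r 48.1 against 239 (4.98-fold lower, 4.09 to 6.11). Igfbp4 was 5.70-fold lower with 17 UMIs against 114.

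Proliferation genes were lower by summed RNA. Of 28 genes of the G2 and M phases, 25 were at least 1.5-fold lower and 0 higher (median log2 ratio -1.17), and of 24 S phase genes 11 were lower. Mki67, the proliferation marker Ki-67, had 71.9 against 168 CPM (2.33-fold lower, 1.96 to 2.79). The share of cells with at least 2 of the G2 and M genes did not follow this. It was 36.7% in the Eomes/Gzmk/Cldn10 cells and 32.0% in cells without the 3 genes with all UMIs, and 14.4% (12.2 to 16.8) against 17.9% (15.7 to 20.3) thinned, with intervals that overlap. Cells with Foxp3 or Il2ra stood at 56.2% thinned. With cells holding at least 2 such genes left out the median of the G2 and M list was -0.35. Without those holding other Treg markers it was -0.30.

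In glycolysis 0 of 14 measured genes were higher and 1 was lower, and in mitochondrial respiration 0 of 15 passed in either direction. Of 22 type I interferon genes 3 were lower, and of 15 genes of the response to interferon gamma 5 were lower and 0 higher (median log2 ratio -0.51). Of 14 survival genes 6 were lower.

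The single genes with the largest differences downward were mostly those of other cell types. Of the 12 named, Lyz2, C1qc, Ccl17, C1qa, C1qb, Apol7c, Fscn1, Cd63 and Apoe, genes of macrophages and dendritic cells, came from 2 to 10 of the 1362 cells without the 3 genes. None of the 9 had enough UMIs for a value once cells with B cell or myeloid markers were left out. The other 3 were Ifitm2 (25.1 against 274 CPM), Ifitm1 (8.22 against 106) and the transcription factor gene Cebpa (1 UMI against 53), whose log2 ratios without those cells were -4.01, -3.73 and -5.32. Ifitm1 RNA was found in 24 of the 1362 cells, and 32.6% of the words of the end of Ifitm2 also occur in other genes.

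**Figure D3:**
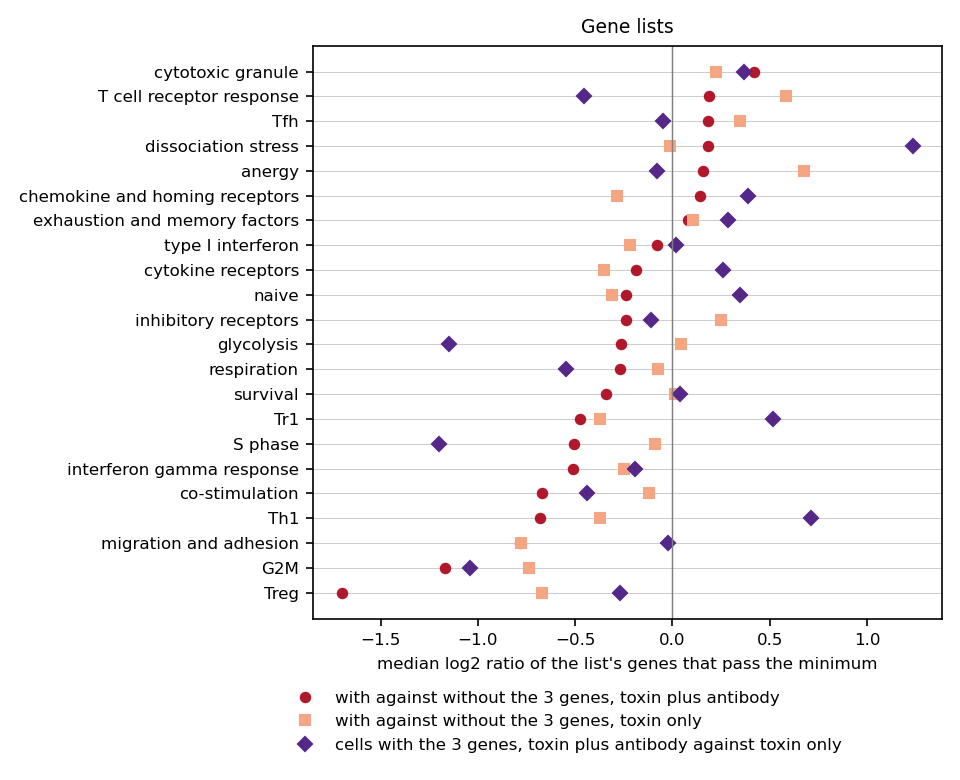
Median log2 ratio (x axis) of the genes of each list that pass the minimum, for Eomes/Gzmk/Cldn10 cells against cells without the 3 genes in the toxin-plus-antibody and toxin-only libraries, and for the Eomes/Gzmk/Cldn10 cells of the first library against those of the second. In the first comparison the Treg list is lowest at -1.70 and the cytotoxic list highest at 0.42. Among the lists drawn, the stress list is highest in the third, at 1.24.

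The 3 genes of the rule did not mark one uniform set. Cells with Gzmk alone stood apart from those with Eomes or Cldn10 alone. Gzma had 1241 CPM (1107 to 1387) in the 132 cells with Gzmk alone, where 42 cells held it and 1 cell gave 15.02% of its UMIs. It had 109 (86.6 to 136) with Eomes alone and 24.9 (11.95 to 45.84) with Cldn10 alone, the latter below the 52.8 of cells with none of the genes. Ccl5 followed the same order, at 1844 (1680 to 2019) with Gzmk alone, 154 with Eomes alone and 110 with Cldn10 alone. Prf1 stood at 174 (127 to 234) with Gzmk alone, 56.8 (40.7 to 77.0) with Eomes alone and 47.4 (28.5 to 74.0) with Cldn10 alone, all above the 22.4 of cells without the genes.

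S100a4, lower over the whole set, was at 591 (500 to 694) with Gzmk alone, close to the 612 of cells without the 3 genes, with 30.9% of its UMIs from 1 cell. It was at 56.8 with Eomes alone and 17.4 with Cldn10 alone. Tnfrsf9, which encodes the co-stimulatory receptor 4-1BB, ran the other way, at 27.8 (11.2 to 57.2) with Gzmk alone against 262 (226 to 302) with Eomes alone. Kcnc1 and Nkg7 were above the level of cells without the 3 genes in every group. Kcnc1 stood at 182 with Cldn10 alone, 134 with Eomes alone, 167 with Gzmk alone and 247 with at least 2 of the genes, and the interval of the last, 218 to 279, overlapped only those of the Cldn10 (143 to 229) and Gzmk (120 to 225) groups. Nkg7 stood at 1022, 1292, 2248 and 1722 in the same order. Slamf7 was highest with at least 2 of the genes, at 583 (538 to 631) against 160 with Cldn10 alone.

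Cells without Foxp3 and Il2ra were also clustered within each library with the 5 rule genes left out. The Eomes/Gzmk/Cldn10 cells made up 81.7% of cluster 3 of the toxin-plus-antibody library (447 cells, led by Dbn1, Slamf7, Tubb2b and Kcnc1), 66.7% of cluster 6 (81 cells, led by Nefh, Ifrd2 and Srm) and 62.3% of cluster 2 (546 cells, led by Dcp1b, Pde2a and Itga4). They made up 25.5% of cluster 1, 18.0% of the cycling cluster 5 and 5.81% of cluster 4, led by Il1r2 and Nrp1. Clusters 2 and 3 together held most of them, with 33.7% and 36.2% of the 1008 cells, and cluster 1 held 16.4%. Clusters were left unnamed and their leading genes are no result of a test. Among the Eomes/Gzmk/Cldn10 cells alone, Slamf7 had 702 CPM in cluster 3, 336 in cluster 2, 376 in cluster 6 and 63.3 in cluster 1. Maf was high in clusters 2 and 3, at 917 and 677, and low in clusters 1 and 6, at 83.4 and 125. Tnfrsf9 was low in clusters 2 and 3 and high in clusters 1 and 6, 24.5 in cluster 2 and 150 in cluster 3 against 430 in cluster 1 and 764 in cluster 6.

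**Figure D4:**
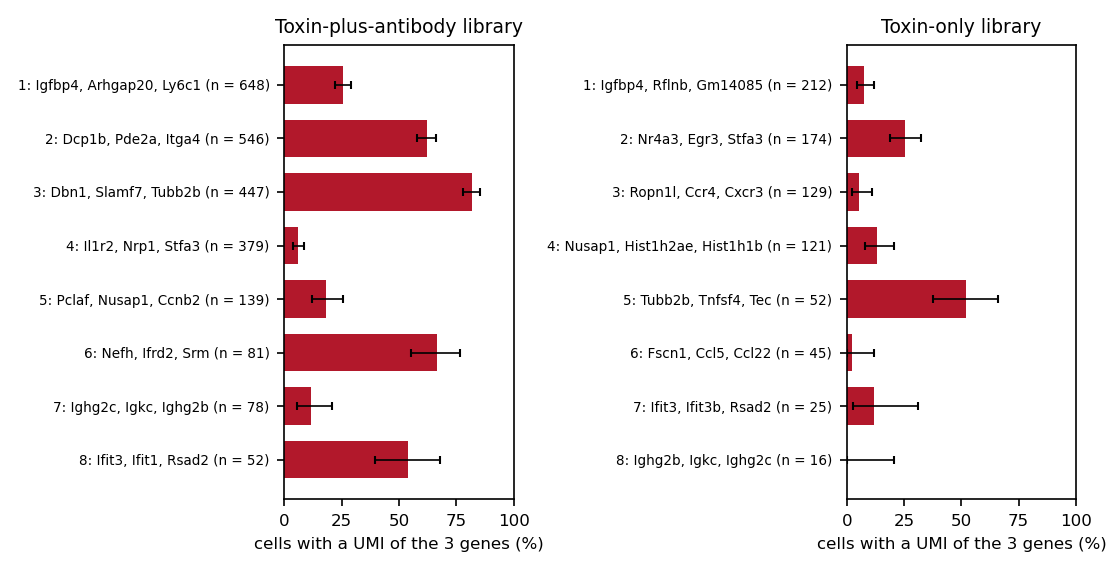
Percent of cells (x axis) that are Eomes/Gzmk/Cldn10 cells in each cluster of cells without Foxp3 and Il2ra, as bars from 0 with exact binomial 95% intervals, for both toxin-treated libraries, with 3 leading genes and the number of cells of each cluster. They make up 81.7% of cluster 3 of the toxin-plus-antibody library, and 51.9% of cluster 5 of the toxin-only library.

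The transgenic SMARTA receptor is built from Trbv13-1 and Trav14d-3-dv8. A UMI of either was found in 614 of the 1008 Eomes/Gzmk/Cldn10 cells (60.9%), in 45.2% of cells without the 3 genes and in 20.4% of cells with Foxp3 or Il2ra. After thinning to 1000 UMIs the shares were 33.1%, 30.3% and 8.30%. Among cells with a UMI of any of the 4 Trbv genes in the table, Trbv13-1 was present in 521 of 522 Eomes/Gzmk/Cldn10 cells, in 524 of 529 cells without the 3 genes and in 361 of 399 cells with Foxp3 or Il2ra (90.5%). In the toxin-only library either receptor gene was found in 74.6% of Eomes/Gzmk/Cldn10 cells, 55.0% of cells without the 3 genes and 22.8% of those with Foxp3 or Il2ra.

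The toxin-only library gave the same comparison with other cells. Of 5753 genes that passed the minimum there, 71 reached a 2-fold excess in its 114 Eomes/Gzmk/Cldn10 cells than in its 660 cells without the 3 genes (1.23%) and 111 a 2-fold deficit (1.93%). Of 125 named genes that passed in both libraries, 24 were higher in both, 73 were lower in both, 8 were higher under toxin plus antibody and lower under toxin alone, and 20 the reverse. The direction was the same for 77.6% of these genes, which were named largely for their differences under toxin plus antibody, and for 63.6% of all 5739 genes that passed in both. Slamf7 had 165 against 43.5 CPM there (3.81-fold higher, 2.92 to 4.94), with 23.8% of its UMIs in the 114 cells from 1 cell, and Nkg7 408 against 165 (2.48-fold higher, 2.13 to 2.88). Kcnc1 had 13 UMIs in 8 of the 114 cells and 1 UMI in the 660. Ifngas1 had 11 UMIs against 13, 17.3 against 4.07 CPM. S100a4 was 7.59-fold lower, Lgals3 29.1-fold lower, Gzmb 7.17-fold lower, Cxcr6 14.4-fold lower and Nrp1 6.95-fold lower.

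Several genes behaved differently in that library. Cd40lg was at 113 against 126 CPM, with an interval from 0.863 to 1.45 for its ratio, where it was 13.3-fold lower under toxin plus antibody. Gzma was at 86.7 against 86.6. Maf was 2.78-fold lower (2.14 to 3.67), and Ccl5 was 10.6-fold lower, from 4 UMIs in 1 of the 114 cells. Genes induced by the T cell receptor were higher there, 7 of 14 measured genes at least 1.5-fold higher and 1 lower, where 5.37% of all genes were higher and 5.56% lower. Their median log2 ratio was 0.58, beside 0.05 over all genes. Under toxin plus antibody 2 of 16 were higher and 3 lower, with a median of 0.19. Egr2 was 3.97-fold higher (2.91 to 5.39) under toxin alone and 1.77-fold under both, and Egr3 2.35-fold higher (1.76 to 3.11) against 1.06-fold lower. Of 9 measured anergy genes 5 were higher and 0 lower under toxin alone. No test of these differences between libraries was possible.

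**Figure D5:**
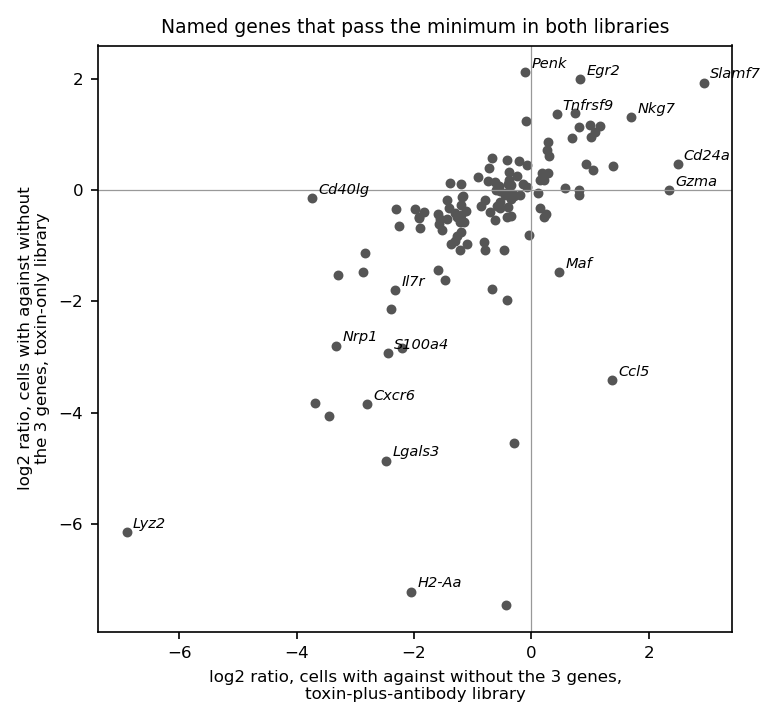
Log2 ratio of Eomes/Gzmk/Cldn10 cells against cells without the 3 genes in the toxin-plus-antibody library (x axis) and in the toxin-only library (y axis), 1 point for each of 125 named genes that pass the minimum in both. Most points lie in the lower left (73) or upper right (24), with Ccl5 at 1.38 and -3.41.

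The smaller sets of the remaining libraries, chosen by the same rule, also carried Nkg7 and Slamf7. Nkg7 had 1294 CPM in the 108 naive cells against 35.8 in naive cells without the 3 genes, 472 against 17.0 in the 49 untreated cells and 292 against 10.9 in the 142 antibody-treated cells. Slamf7 had 55.4 against 2.87, 101 against 7.90 and 93.7 against 8.49. These levels did not come evenly from the cells. In the untreated set, 15 cells with 3 or more UMIs of the 3 genes held 86 UMIs of Nkg7 and 17 of Slamf7. The 29 untreated cells with 1 UMI held 3 and 2. Cells with 1 UMI had 800 CPM of Nkg7 and 23.4 of Slamf7 in the naive set, and 98.3 and 42.8 in the antibody-treated set. Kcnc1 was nearly absent, with 1 UMI in the naive, 3 in the untreated and 0 in the antibody-treated set. The exact interval of the last ended at 3.84 CPM, and the level of the toxin-plus-antibody set was 194 (177 to 213). In order, Kcnc1 stood highest under toxin plus antibody, then under toxin alone at 20.5 (10.9 to 35.0) and in untreated cells at 15.9 (3.28 to 46.5), which overlap.

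Set against the 114 cells chosen by the same rule under toxin alone, the 1008 cells of the toxin-plus-antibody library had more RNA of Kcnc1, Ccl5, Maf, Itga4, Nkg7 and early response genes, and less of cell cycle and glycolysis genes. Of 6000 genes that passed the minimum, 324 reached a 2-fold difference upward (5.40%) and 121 downward (2.02%). The comparison shares its cells with the comparisons within each library. The rule admitted a different mix of cells in each set. Gzmk was held by 35.32% of the 1008 cells and 14.04% of the 114, Eomes by 64.19% and 54.39%, and Cldn10 by 46.73% and 50.88%. Among the 1008, Gzma, Ccl5 and Prf1 stood higher with Gzmk alone than with Eomes alone or Cldn10 alone. The part of this mix in the folds was not tested. The sets also differed in depth, with medians of 2196 and 4320.5 UMIs per cell. With the 114 cells weighted to the depth of the 1008, 456 genes were higher and 143 lower, among them 191 of the 324 and 40 of the 121. Of 115 named gene ratios, 71 moved out of their counting interval under this weighting and 44 did not. Log2 ratios of genes described next that moved included those of Kcnc1 (3.25 to 4.24), Ly6c2 (3.36 to 1.45), Pde2a (3.11 to 1.77), Ccl5 (6.17 to 7.16), Ccr7 (-1.23 to -2.39) and Prf1 (2.15 to 3.14). Genes given below at 2-fold or more that fell short of it when weighted included Ikzf2 (0.55), Egr2 (-0.67), Egr3 (-0.48), Penk (-0.86) and Pclaf (-0.98). No named gene with at least a 2-fold difference before weighting changed direction. For smaller ratios, changes of direction were not counted. Folds below are unweighted. The same difference between the cells without the 3 genes of both libraries is given beside the values. Among 9267 genes there, 457 were at least 2-fold higher (4.93%) and 178 lower (1.92%).

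Kcnc1 had 194 against 20.5 CPM, 9.49-fold higher (5.50 to 18.0), and 31.8 against 0.313, with 91 UMIs against 1, in cells without the 3 genes. Ccl5 had 1105 UMIs in 164 cells against 4 UMIs in 1 cell (72.1-fold higher, 28.1 to 265) and was 2.61-fold higher in cells without the 3 genes. Dcp1b, an mRNA decapping factor, had 308 against 26.8 (11.5-fold higher) beside 4.19-fold, and Pde2a, a cyclic nucleotide phosphodiesterase, 136 against 15.8 (8.63-fold higher). Itga4 had 792 against 132 (5.98-fold higher, 4.81 to 7.54), beside 5.91-fold in cells without the 3 genes. Maf had 559 against 96.1 (5.82-fold higher, 4.502 to 7.651) beside 1.51-fold (1.38 to 1.65). Slamf7 was 2.46-fold higher (2.01 to 3.04), beside 1.23-fold (0.971 to 1.56). These intervals cover counting error only, and whether the folds differ between the 2 kinds of cell was not tested. Ikzf2 was 2.19-fold higher beside 2.58-fold, and Nkg7 3.76-fold beside 2.87-fold. Ly6c2, a surface protein, was 10.2-fold higher, and 47.2% of the words of its end also occur in Ly6c1, Ly6i or I830127L07Rik. An exon of Itga4 overlaps one of Cerkl on the other strand.

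Jchain, Mzb1, H2-Eb1, Slpi and H2-Aa, genes of antibody-secreting or antigen-presenting cells or of secretions, were also among the 12 highest, from 1 to 7 of the 1008 cells, and 1 cell gave 99.1% of the Jchain UMIs. B cell and plasma cell markers summed to 2636 CPM here against 424 in the toxin-only set, where 7 of 14 were at 0, and myeloid markers to 691 against 596. These 5 genes gave no value without the cells holding B cell or myeloid markers, and the counts of genes at least 2-fold higher and lower were then 321 and 124.

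Of 12 measured cytotoxic genes, 5 were at least 1.5-fold higher and 0 lower, where 15.4% of all genes were higher and 9.12% lower. Their median log2 ratio was 0.37, beside 0.05 over all genes. Prf1 was 4.43-fold higher (2.54 to 8.46), Gzma 3.10-fold (log2 ratio -0.48 with Cldn10 alone as the rule), Gzmb 3.06-fold and Crtam 3.29-fold. These folds were not adjusted for the larger share of cells with Gzmk under toxin plus antibody. Among cells without the 3 genes 3 of 11 were higher and 1 lower, against 15.7% and 6.14% of all genes. Of 9 measured inhibitory receptors 0 were higher and 1 was lower. Lag3 was 1.41-fold higher (1.23 to 1.62) and Pdcd1 1.24-fold, with an interval from 0.980 to 1.57. Ctla4 was 1.34-fold higher (1.02 to 1.78). Genes induced by the T cell receptor were mixed, 2 of 13 higher and 6 lower, with Egr2 2.14-fold lower and Egr3 2.42-fold lower, though Egr3 had a log2 ratio of 0.30 with Eomes alone as the rule.

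Genes known to be induced by cell dissociation and stress had the highest median of the lists with at least 5 measured genes. Of 10 measured, 9 were at least 1.5-fold higher and 0 lower (median log2 ratio 1.24), and among cells without the 3 genes 8 of 12 were higher, with a median of 0.96. Fos, a subunit of the AP-1 factor, had 1443 against 326 CPM (4.43-fold higher, 3.85 to 5.12) beside 2.52-fold. Dusp1, a phosphatase of the MAP kinases, had 360 against 86.7 (4.15-fold) beside 4.54-fold. The part of tissue handling in these values was not tested.

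Proliferation and glycolysis genes were lower in both kinds of cell. Of 20 measured S phase genes 17 were at least 1.5-fold lower and 0 higher (median log2 ratio -1.20), beside 19 of 25 in cells without the 3 genes, and of 16 G2 and M genes 13 were lower (median -1.04), beside 22 of 28. Tyms, thymidylate synthase, had 36.2 against 167 CPM, and Pclaf, a partner of PCNA, 120 against 421, of which 1 cell gave 23.2% in the toxin-only set. The share of cells with at least 2 of the G2 and M genes was 14.4% against 19.5% (12.6 to 28.0) thinned, with intervals that overlap. Of 11 glycolysis genes 7 were lower and 0 higher (median -1.15), beside 8 of 14. Eno1, enolase 1, had 82.6 against 397 CPM (4.81-fold lower, 3.98 to 5.81), beside 5.39-fold. Respiration genes were lower in 6 of 15, beside 0 of 15. Weighting the toxin-only cells to the same spread over 5 bins of total UMIs brought the medians to -0.60 for S phase, -0.36 for G2 and M, -0.70 for glycolysis and 0.75 for stress genes. The log2 ratios of the named respiration genes then ran from -0.53 for Ndufs6 to -0.20 for Cox5b, all short of a 1.5-fold difference. The direction of the cell cycle medians turned under other cell choices, to 1.24 for G2 and M and 0.25 for S phase among cells with at least 2 of the 3 genes, and to 0.19 for S phase, and 0.60 for Pclaf, without cells holding other Treg markers.

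Other genes that stood lower under toxin plus antibody included Cxcr3 at 53.4 against 202 CPM (3.77-fold lower, 2.93 to 4.86), Tnfsf8, the ligand of CD30, 3.32-fold lower, and Penk, which encodes proenkephalin, 3.21-fold lower with 48.8% of the toxin-only UMIs from 1 cell. Bcl2a1b, a survival factor, was 3.94-fold lower beside 1.79-fold, and its count is uncertain because 83.0% of the words of its end also occur in Bcl2a1d, Bcl2a1a or Gm29094. Cd4 was 1.74-fold lower and Ccr7 2.35-fold lower. Cxcr5 was 1.75-fold lower (1.33 to 2.29), and Il6ra 2.79-fold lower.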

How the data were processed

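Tables of 3′ single-cell UMI counts, deposited by the authors as unnormalized whole numbers per gene and cell, were used for 5 libraries, 1 table each. Per the submitters' processing notes, they used bcl2fastq 2.20, Cell Ranger 6.0.0, R 4.1.1, Seurat 4.0.4 and genome mm10. The tables hold 11924 genes; how these and the cells were selected is not given in the sources used here. The Eomes/Gzmk/Cldn10 cells, the gene lists and the comparisons were chosen with earlier results of these data known.

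Counts were summed over the cells of a set and scaled to counts per 1000000 UMIs (CPM). Ratios have conditional exact binomial 95% intervals, levels exact Poisson intervals and shares Clopper-Pearson intervals. A count of 0 was set to 3 UMIs over the set. Genes needed 20 UMIs expected in the smaller set, and a call was a 2-fold difference, or 1.5-fold within lists. No p-value was computed. The genes named were, in each of 2 comparisons, the 12 highest and 12 lowest by the interval bound nearest to 1, the 2 to 4 largest of each list described, and a fixed set. The 12 highest and lowest left out mitochondrial, ribosomal protein, Y-linked, T cell receptor variable, immunoglobulin and hemoglobin genes, Xist, Tsix and unnamed models.

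The lists held 369 genes, of which 349 were in the tables. Doublets were not called; leaving out cells above the 99th percentile of UMIs was an alternative. Clusters used scanpy 1.11.5 with 2000 variable genes, 30 principal components, 15 neighbours and resolution 0.6. edgeR 4.0.16 gave only the TMM factors of an alternative. The scripts were tested on simulated data in Python 3.11.15. Gene positions came from a GRCm38 annotation and promoters from RefSeq. Alternatives changed scaling, the minimum, cell filters, thinning, depth weighting and the rule. One, leaving out cells with B cell or myeloid markers, was chosen after the data were seen.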

Additional observations from a re-analysis of the deposited data

Results flagged for a closer look

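Ccl5, a chemokine made by cytotoxic and memory T cells, differed between Eomes/Gzmk/Cldn10 cells and cells without the 3 genes in opposite directions in the toxin-treated libraries. Its log2 ratio was 1.38 under toxin plus antibody and -3.41 under toxin alone. The difference between the libraries was not tested, since each is 1 sample. Under toxin alone it rests on 4 UMIs in 1 of 114 cells against 214 UMIs in 17 of 660 cells, and under toxin plus antibody on 1105 UMIs in 164 cells against 500 in 68 cells.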

How the results depend on the processing

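Each group is 1 library, so no library could be left out and the differences rest on counting error alone. No paired analysis was possible because each group has 1 library. For genes at least 2-fold higher than in cells without the 3 genes (210), the count was 114 with a minimum of 50 UMIs and 522 with none, 63 with cells thinned to 1000 UMIs, 96 without cells holding 2 markers of any other cell type and 136 without cells in G2 or M. It was 106, 72 and 75 with Eomes, Gzmk or Cldn10 alone as the rule. For genes at least 2-fold lower (300), it was 460, 147 and 889 with minimums of 10, 50 and none, 101 thinned, 89 without cells holding 2 markers of any other type, 156 without cells holding other Treg markers, 139 without cells in G2 or M, 141 in cells with a SMARTA receptor gene, and 175 and 174 with Eomes or Gzmk alone. Against the toxin-only cells, the 324 higher genes became 514, 156 and 1046 with those minimums, 23 thinned (7.32% of 314 genes tested), 26 without cells holding 2 markers of any other type (6.72% of 387), 127 without other Treg markers, 84 without cells in G2 or M, 62 with at least 2 of the 3 genes, and 106 and 190 with Gzmk or Cldn10 alone. The 121 lower genes became 226, 53 and 1313, then 4 thinned, 6, 24, 24, 19, 26 and 61 in the same order. Leaving out cells with 2 markers of any other type keeps 332 of the 1008 and 15 of the 114 cells. Counts under thinning or fewer cells come from fewer UMIs, so fewer genes reach the minimum.

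The share of Eomes/Gzmk/Cldn10 cells was 32.79% thinned to 1000 UMIs, 20.17% thinned to 500, 16.54% with at least 2 of the genes and 26.84% with at least 2 UMIs. The share of them with a SMARTA receptor gene was 33.12% and 18.85% thinned, 52.11% without cells holding markers of any other type and 57.68% without cells in G2 or M.

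Changes of sign were counted only for genes at least 2-fold different, and list medians at least 1.5-fold different, before the alternatives. Against cells without the 3 genes, where 171 gene ratios and 25 list medians were followed, 9 such genes and 1 such list changed sign under some alternative. Smaller ratios also crossed 0 without being counted. That of Cd160, for example, ran from -1.40 to 0.57 over the alternatives. With Gzmk alone the log2 ratio was 0.047 for Angptl2 and 0.15 for Cxcr3. With Cldn10 alone it was -1.53 for Ccl5, -0.55 for Gzma and 0.013 for Hspa1b. Without cells holding markers of any other type it was 0.028 for Gins2 and 0.61 for Nrn1, and 0.19 for the median of the cytokine list. In cells with a SMARTA receptor gene it was 3.15 for H2-Aa and 3.84 for H2-Eb1. Against the toxin-only cells, it was 1.58 for Birc5 and 0.60 for Pclaf without cells holding other Treg markers, 0.30 for Egr3 with Eomes alone and -0.48 for Gzma with Cldn10 alone. The G2 and M median was 1.24 with at least 2 of the genes, and the S phase median 0.19 without other Treg markers, 0.49 without cells in G2 or M and 0.25 with at least 2 of the genes. The cause of these changes of sign was not tested. A gene or list with too few UMIs under an alternative has no value there.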
